A study of Mus musculus with 6 samples.

Results

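Plet1, Thy1 and Pdpn encode 3 cell surface glycoproteins, and they are described here in mouse bone marrow cultures that received a mimic of miR-142-3p. The genes were taken by their symbol in the platform annotation, which gave 3 of the 18193 genes with a probe set of their own and 5 of the 45101 probe sets of the Affymetrix MOE430 2.0 array: 3 for Plet1, 1 for Thy1 and 1 for Pdpn. Marrow cells of healthy C57BL/6 mice were given either the mimic or a control oligonucleotide (CTRL oligo), each at 100 nM with the reagent GeneSilencer. In both groups GM-CSF and IL-6 followed after 5 h and stayed on the cells for 4 days, a culture that yields myeloid-derived suppressor cells (MDSCs), which are immature myeloid cells able to restrain T cells. Each group had 3 arrays of total RNA, and no culture without an oligonucleotide was analysed here. The genes were chosen by their log2 fold change between these groups, so their values in that comparison are a description and carry no p-value.

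Plet1 (placenta-expressed transcript 1) and Thy-1, also called CD90, are held in the outer leaflet of the membrane by a glycosylphosphatidylinositol (GPI) anchor. Thy-1 is a small protein of the immunoglobulin superfamily, carried in the mouse by T cells, neurons, fibroblasts and some blood progenitors, and it binds leukocyte integrins. Podoplanin, the product of Pdpn, is a mucin-type transmembrane protein with sialylated O-glycans that binds the platelet and myeloid receptor CLEC-2 and links to actin through ezrin and moesin. It marks lymphatic vessels and the fibroblastic stroma of lymph nodes and can be induced on macrophages. Plet1 marks progenitors in several epithelia and has also been found on dendritic cells.

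The sequence of the microRNA under study and the promoters of the members that RefSeq lists are shown first. A microRNA pairs with its targets mainly through its seed, bases 2 to 8, set in capitals in the mature mouse miR-142a-3p as RefSeq gives it (GRCm38.p6, chr11:87756903-87756925, plus strand).
mmu-miR-142a-3p: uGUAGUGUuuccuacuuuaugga
Among 1738 mature mouse miRNAs in the RefSeq table, 1 carries this seed, miR-142a-3p itself. Target sites in the transcripts of Plet1, Thy1 and Pdpn were not analysed here.

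Since Plet1 and Pdpn were lower together, the 250 bases before their annotated starts are given from RefSeq (GRCm38.p6), with matches to 8 common motifs in capitals. Of the 3 genes, 2 had an entry, and Thy1 had none. The Plet1 window lies at chr9:50494275-50494524 on the plus strand and the Pdpn window at chr4:143299565-143299814 on the minus strand.
Plet1 promoter: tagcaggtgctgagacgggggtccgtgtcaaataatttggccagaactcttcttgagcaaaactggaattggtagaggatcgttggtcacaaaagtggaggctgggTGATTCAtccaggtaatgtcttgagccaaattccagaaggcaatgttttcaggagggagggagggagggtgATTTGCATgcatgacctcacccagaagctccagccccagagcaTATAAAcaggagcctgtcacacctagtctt
Pdpn promoter: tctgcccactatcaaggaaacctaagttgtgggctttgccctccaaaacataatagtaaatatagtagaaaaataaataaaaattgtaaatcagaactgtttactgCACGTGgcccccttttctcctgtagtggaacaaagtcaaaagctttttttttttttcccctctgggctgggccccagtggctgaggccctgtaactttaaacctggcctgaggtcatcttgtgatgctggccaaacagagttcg
The motifs were searched on both strands, and no 2 matches overlapped. The Plet1 window held a TATA box (TATAAA) 30 to 25 bases before the start, a motif found in 12.4% of 32851 mouse promoter windows of the same length. It also held TGATTCA 144 to 138 bases before the start. This matched only a loose form of the AP-1 motif, searched with any middle base (TGANTCA, in 6.75% of windows). An octamer motif (ATTTGCAT, in 1.6%) lay 73 to 66 bases before the start. The Pdpn window held an E-box (CACGTG, in 6.02% of windows) 144 to 139 bases before the start. The letters searched for a kappaB site (in 1.21%), a STAT site (TTCNNNGAA, in 7.02%), a PU.1 site (GAGGAA, in 23.3%) and a GC box (GGGCGG, in 32.7%) were in neither window. No motif was shared by the windows, and a match is a run of letters, not a binding site. The motifs were chosen after the sequences were seen, so the shares do not measure how unusual a match is.

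Values are the deposited log2 values, 1 per probe set and array. Array medians ran from 0.839 to 0.918, and 52.6% of values lay below 1. Arrays correlated with each other at 0.982 to 0.996 across probe sets. Whether arrays of 1 group were made from separate cultures or mice is not in the labels, so the spread and the p-values measure only the differences between these samples, which may be technical, and the number of arrays limits the precision. Genes of the labelled myeloid cells were bright, with the neutrophil and monocyte calgranulin genes S100a8 and S100a9 at control means of 11.85 and 12.21 and the leukocyte gene Ptprc (CD45) at 8.64. These 3 genes were picked after their values were seen. Of 8 such genes measured 1 fell with the mimic, Itgam, and 7 did not pass. Ly6g and Ly6c2 had no probe set with a single symbol and were not used here. Control array 1 stood apart from the other controls in its bacterial spike-in probe sets, which averaged 8.57 there against 7.58 and 7.53, and the mimic arrays stood at 8.16, 8.06 and 8.92.

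Plet1 (Entrez gene 76509) was lower with the mimic in 2 of its 3 probe sets. In the brightest, 1423933_a_at, control arrays 1, 2 and 3 stood at 8.61, 7.57 and 7.07 and mimic arrays 1, 2 and 3 at 5.00, 4.97 and 4.81. The groups did not overlap: the lowest control array lay 2.07 above the highest mimic array on the log2 scale. Control arrays averaged 7.75 ± 0.78 and mimic arrays 4.93 ± 0.10 (SD, n = 3), a 7.08-fold lower level (log2 fold change -2.82 ± 0.34, SE). In bulk RNA of this kind, fewer cells that carry a transcript and less of it per cell cannot be told apart.

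The other responsive Plet1 probe set, 1454254_s_at, stood at 7.27, 5.99 and 5.53 in the control arrays and at 3.25, 1.99 and 3.19 in the mimic arrays. Here too every control array lay above every mimic array, and mimic array 2 was the lowest of the 6. The level was 10.9-fold lower (log2 fold change -3.45 ± 0.49), with means of 6.26 ± 0.90 and 2.81 ± 0.71. The third Plet1 probe set, 1423934_at, was dim, at 1.37, 1.39 and 1.43 in the control arrays and 1.12, 1.52 and 1.12 in the mimic arrays. Its groups overlapped and its log2 fold change was -0.15 ± 0.13. This probe set and 1423933_a_at are annotated with the same source sequence, yet only 1 of them had a lower level in every mimic array.

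Thy1 (Entrez gene 21838, probe set 1423135_at) stood at 7.35, 6.61 and 6.41 in the control arrays and at 4.48, 4.38 and 4.43 in the mimic arrays. The groups were 1.94 apart at their nearest points, and the mimic arrays spanned only 0.09 on the log2 scale against 0.94 for the controls. Thy1 was 5.14-fold lower with the mimic (means 6.79 ± 0.50 and 4.43 ± 0.05, SD, n = 3, log2 fold change -2.36 ± 0.23).

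Pdpn (Entrez gene 14726, probe set 1419309_at) stood at 6.82, 6.19 and 6.07 in the control arrays and at 4.25, 4.44 and 4.36 in the mimic arrays. The lowest control array lay 1.62 above the highest mimic array. Pdpn was 4.03-fold lower with the mimic (means 6.36 ± 0.41 and 4.35 ± 0.10, SD, n = 3, log2 fold change -2.01 ± 0.19), the smallest of the 4 differences.

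**Figure D1:**
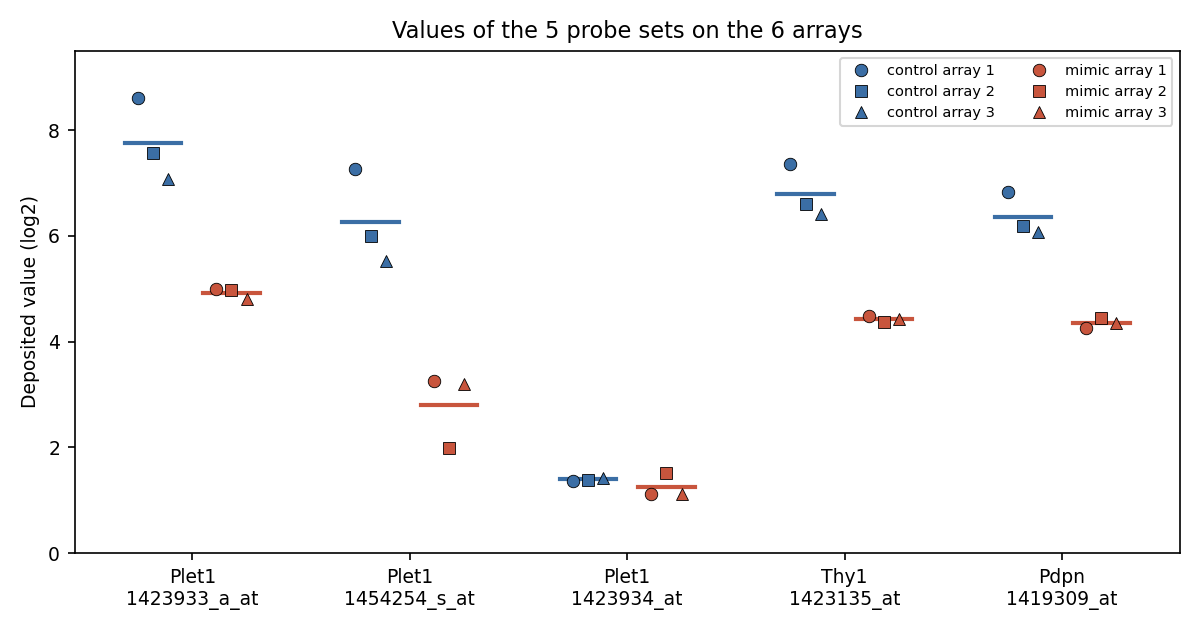
Deposited log2 value (vertical axis) of each of the 5 probe sets of Plet1, Thy1 and Pdpn (horizontal axis) on the 3 control and 3 mimic arrays. Symbols mark array numbers and bars mark group means. In 4 probe sets every control array lies above every mimic array and control array 1 is the highest, while the groups of 1423934_at overlap, with controls from 1.37 to 1.43 inside the mimic range of 1.12 to 1.52.

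In the comparison of all 45037 probe sets that are not array controls, 404 (0.897%) passed an adjusted p of 0.05 (limma, Benjamini-Hochberg). The mimic arrays were higher in 148 of these (0.329% of those tested) and lower in 256. Of the 5 member probe sets 4 passed, all lower, where 0.568% of all probe sets passed in that direction, and the same 4 had every mimic array below every control array, where 8.9% of all probe sets did. This difference is what the genes were chosen for, so nothing is read from it. Ranked from the largest fall over all probe sets, 1454254_s_at and 1423933_a_at of Plet1 were at 3 and 5, Thy1 at 8 and Pdpn at 18. A further round of quantile normalisation split the calls over all probe sets into 315 higher and 316 lower, and a fit with each array's spike-in level as a covariate gave 1221 higher and 917 lower. Members kept their calls in both.

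The control arrays differed from each other in the same order for the 4 probe sets. Control array 1 was the highest, array 2 the next and array 3 the lowest in all 4, while 19.9% of all probe sets and 59.4% of the 256 called lower had that order. Relative to the control mean, array 1 stood at 0.86 and 1.01 in the Plet1 probe sets, 0.56 in Thy1 and 0.46 in Pdpn, and array 3 stood at -0.68, -0.73, -0.38 and -0.29. The deviation of array 1 was thus larger in Plet1 than in Pdpn, as was the fall. The mimic arrays had no order in common: array 2 was the lowest for Thy1 and for 1454254_s_at of Plet1 and the highest for Pdpn. The SD was larger among control than among mimic arrays in all 4, by a factor of 7.65 and 1.27 for the Plet1 probe sets, 10.9 for Thy1 and 4.26 for Pdpn, and 65.2% of the probe sets called lower had the larger SD in control. Mimic array 3, with the highest spike-in mean of all arrays, stood within 0.12 of the mimic mean for 1423933_a_at of Plet1, Thy1 and Pdpn.

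Without control array 1 the differences were smaller but remained. Plet1 was then 5.27-fold lower in 1423933_a_at and 7.71-fold in 1454254_s_at, Thy1 4.23-fold and Pdpn 3.43-fold, and 1454254_s_at no longer passed the test. Without control array 3 they were 8.97-fold, 14.1-fold, 5.86-fold and 4.46-fold, and again 1454254_s_at did not pass. Without control array 2, or without any one of the mimic arrays, 0 of 45037 probe sets passed limma's test (4579 to 5518 at an unadjusted p under 0.05), so each call named here, for members and other genes, was lost in those 4 fits. The members' log2 fold changes moved little there, from -2.77 to -2.91 for 1423933_a_at, from -3.04 to -3.67 for 1454254_s_at, from -2.34 to -2.45 for Thy1 and from -1.96 to -2.10 for Pdpn. With the spike-in level as a covariate the falls were larger, at -3.17, -4.06, -2.61 and -2.21.

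**Figure D2:**
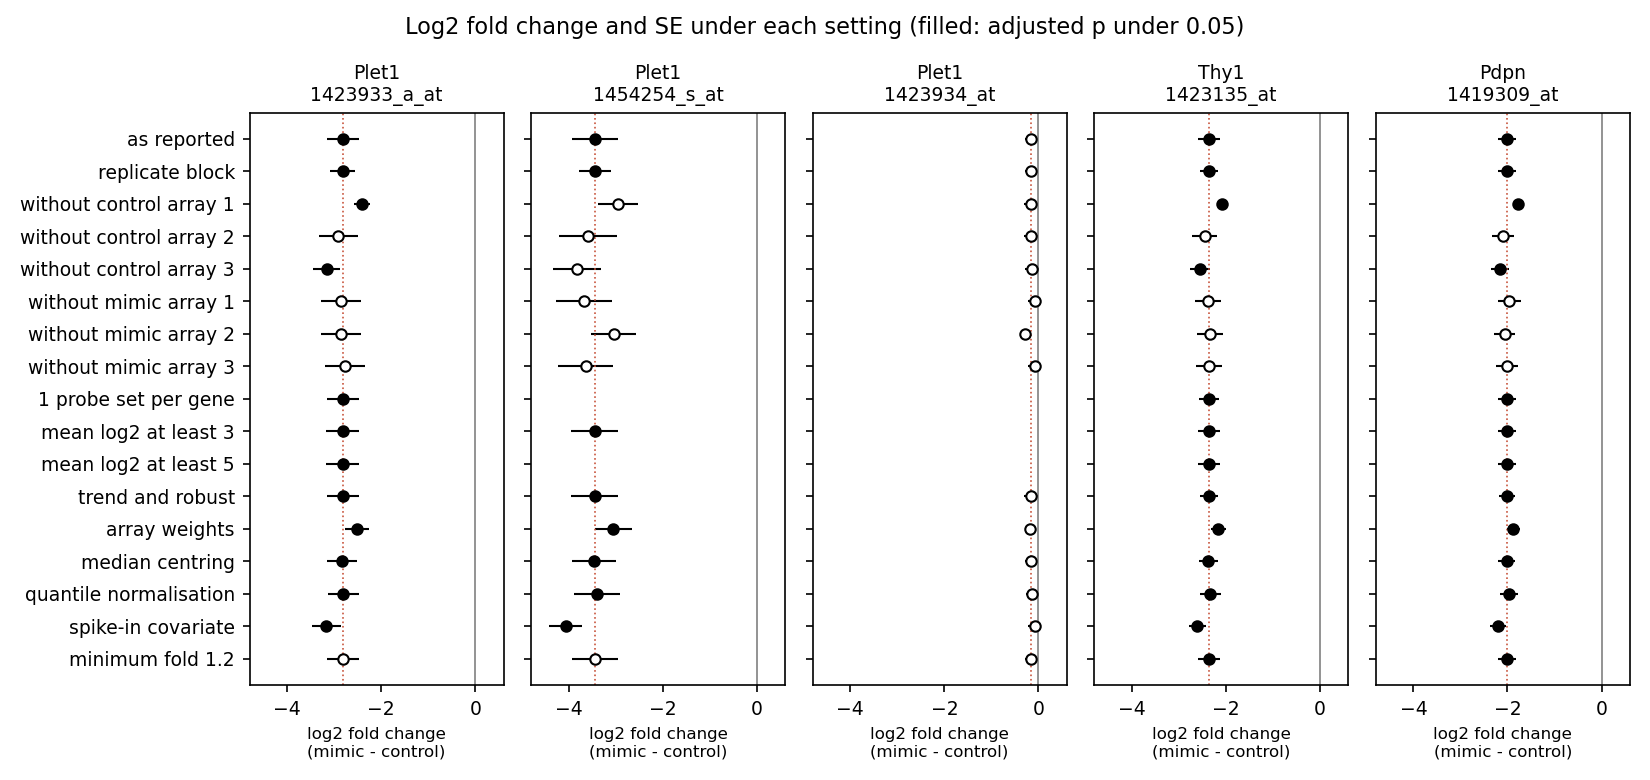
Log2 fold change with its SE (horizontal axis, mimic minus control) of the 5 probe sets under each setting of the analysis (vertical axis), 1 panel per probe set. Filled points passed an adjusted p of 0.05, the dotted line marks the value as reported and the grey line marks 0. Values for Thy1 lie between -2.08 and -2.61 and those for Pdpn between -1.78 and -2.21.

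Genes that act with podoplanin showed no call in either direction. Of 12 measured partner genes 0 rose, 0 fell and 12 did not pass limma's test, with a median log2 fold change of -0.10. Over the brightest probe sets of all 18193 genes the median was 0.01, and 1.45% passed (0.572% rose and 0.879% fell). In 6 partner genes the groups did not overlap, as in 17.5% of all probe sets. That share includes dim probe sets, and the share over the brightest probe sets was not counted. Clec1b, which encodes the podoplanin receptor CLEC-2, averaged 4.29 ± 0.21 in the control arrays and 4.86 ± 0.05 in the mimic arrays (log2 fold change 0.57 ± 0.12, adjusted p = 0.0934), opposite in sign to Pdpn. It passed upward without control array 1 (0.69, adjusted p = 0.0437), in the fit of probe sets with a mean log2 of at least 3 (adjusted p = 0.0404) and with array weights (adjusted p = 0.0216). Over its other alternatives its adjusted p ran up to 0.798.

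The ezrin gene Ezr and the moesin gene Msn, whose products tie podoplanin to actin, had log2 fold changes of -0.28 ± 0.09 (adjusted p = 0.216) and -0.16 ± 0.11 (adjusted p = 0.607). Cd44, a hyaluronan receptor that associates with podoplanin, had -0.12 ± 0.10 (adjusted p = 0.692). The largest difference in the list was that of Cd9, a tetraspanin gene, at 8.19 ± 0.32 in control and 7.52 ± 0.21 with the mimic (log2 fold change -0.67 ± 0.18, adjusted p = 0.168). With the spike-in covariate Cd9 passed (-0.91, adjusted p = 0.0113).

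Of 13 measured genes that encode Thy-1 partners 2 fell, 0 rose and 11 did not pass, with a median log2 fold change of -0.32. Both that fell encode integrin alpha chains of leukocytes. Itgax (CD11c, a chain also used to mark dendritic cells) stood at 7.84, 6.96 and 6.62 in the control arrays and at 4.42, 4.34 and 4.27 in the mimic arrays, a level 6.96-fold lower, with a log2 fold change of -2.80 ± 0.28 (limma, adjusted p = 0.0187). For Itgam (CD11b) the level was lower by a factor of 2.29 (log2 fold change -1.19 ± 0.17, limma adjusted p = 0.0355), and it did not pass without control array 3 (-1.12, adjusted p = 0.103). Control array 1 was the highest control for Itgax, as for the members, but not for Itgam, where it stood at 6.22 against 6.84 in array 2. Itgb2, the beta chain that pairs with both, differed by -0.37 ± 0.09 on the log2 scale (adjusted p = 0.136). Itgb2 was chosen after its values were seen.

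Genes of the GPI anchor that Plet1 and Thy-1 share gave no call. Of 26 measured genes that build, attach or trim the anchor 0 rose and 0 fell by limma, and the median of their log2 fold changes was 0.00. In 3 of them the groups did not overlap (17.5% of all probe sets). The largest difference was that of Pigh, a subunit of the first enzyme of the pathway, at 0.53 ± 0.14 (adjusted p = 0.166). With the spike-in covariate Pigh passed (0.65, adjusted p = 0.0488), 1 of 2 anchor genes called higher in that fit. Among 30 other genes of GPI-anchored surface proteins 1 rose, 2 fell and 27 did not pass (median 0.02). Nt5e, the gene of the adenosine-producing ectoenzyme CD73, was 2.39-fold lower (4.97 ± 0.06 and 3.72 ± 0.15, adjusted p = 0.0187 by limma) and Cd14, the endotoxin co-receptor gene, was 2.17-fold lower (adjusted p = 0.0255). Bst2, the gene of the antiviral protein tetherin, rose 1.65-fold (adjusted p = 0.0409). The 2 dimmer probe sets of Nt5e did not pass. Bst2 did not pass without control array 1 or 3, nor Cd14 without array 3 (adjusted p = 0.0933, 0.0792 and 0.0615).

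Of 19 genes of O-glycan and sialic acid synthesis, the sugars that podoplanin carries, 0 rose and 0 fell by limma (median log2 fold change -0.10). In 6 of them the groups did not overlap (17.5% of all probe sets). The largest difference was that of the sialyltransferase gene St3gal4, at -0.59 ± 0.19 (adjusted p = 0.234). With the spike-in covariate St3gal4 passed (-0.82, adjusted p = 0.0261), 1 gene of the list was called higher and 1 lower, and the median was 0.03.

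Markers of cell types known to carry the members were read beside them, as the sum of the linear values of each list's brightest probe sets. T cells, the main carriers of Thy-1 among mouse blood cells, gave no call: 0 of 13 marker genes rose or fell by limma, and the summed level ran from 51.6 to 56.3 in the control and from 57.0 to 58.6 in the mimic arrays. The brightest genes of that sum were Zap70 (3.72 ± 0.07 and 3.76 ± 0.06) and Lat (3.38 ± 0.26 and 3.61 ± 0.19), chosen after their values were seen. Cd3e, a subunit of the T cell receptor complex, stood at 2.28 ± 0.14 and 2.20 ± 0.14 (adjusted p = 0.827), and Cd247, Cd8b1 and Cd5 lay below 1 on all arrays. The largest difference in that list was that of the costimulatory receptor gene Cd28, at 0.63 ± 0.23 (adjusted p = 0.286). Of 9 markers of NK and innate lymphoid cells 1 rose, the receptor gene Klrk1 (NKG2D, 0.92 ± 0.10, adjusted p = 0.0194 by limma, and adjusted p = 0.0516 without control array 3), and 5 lay below 1 on all arrays. The sum of that list ran from 83.5 to 102.7 in control and from 113.8 to 124.5 with the mimic. It rests largely on the brightest gene, Il7r, which did not pass (6.22 ± 0.20 and 6.59 ± 0.08, limma adjusted p = 0.225).

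Fibroblasts and stroma, which can carry both Thy-1 and podoplanin, had a summed marker level of 134.0 to 158.6 in the control arrays and 89.9 to 105.9 in the mimic arrays. Of 15 genes 3 fell and 0 rose, with a median log2 fold change of -0.05 (0.05 with the spike-in covariate). Dcn, which encodes the matrix proteoglycan decorin, was 3.00-fold lower at a low level (3.62 ± 0.22 and 2.04 ± 0.27, adjusted p = 0.0192 by limma). The collagen gene Col1a2 was 1.93-fold and the smooth muscle actin gene Acta2 1.80-fold lower (adjusted p = 0.0415 and 0.0329), and neither passed without control array 1 (adjusted p = 0.0961 and 0.0759) or array 3 (0.0922 and 0.0701). The stromal sum rests largely on these 3 called genes, most of all on Acta2 (6.12 ± 0.12 and 5.27 ± 0.18), so it is not separate from their calls. The other collagen I chain gene, Col1a1, had -0.65 ± 0.20 (adjusted p = 0.219). The dimmer probe sets of these genes (1 of Dcn, 2 of Col1a2 and 2 of Acta2) did not pass. Of the 15 genes 4 lay below 1 on every array of both groups (Pdgfra, Lum, Lepr and Twist1), while others that did not pass lay higher, among them Col3a1 at 2.48 ± 0.28 and 2.43 ± 0.13 and Cxcl12 at 2.98 ± 0.52 and 3.26 ± 0.29. Col3a1 and Cxcl12 were chosen after their values were seen. The stromal sum was highest in control array 2, while Dcn (3.79, 3.70 and 3.38 in control arrays 1, 2 and 3) and Acta2 (6.24, 6.10 and 6.01) had the control order of the members. The part of stromal cells in the members' difference was not tested.

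Vessel markers gave no call: 0 of 12 passed in either direction by limma, and their sum ran from 42.4 to 52.6 in control and from 50.2 to 54.6 with the mimic. The largest part of the sum came from the brightest gene, Vwf (3.97 ± 0.49 and 3.93 ± 0.18), chosen after its values were seen. Prox1 and Lyve1, which define lymphatic vessels, lay below 1 on all arrays. Pecam1, a gene of endothelium and platelets, differed on the log2 scale by 0.02 ± 0.20 (adjusted p = 0.985), and Egfl7, with the largest difference, 0.52 ± 0.12 (adjusted p = 0.125). Of 11 epithelial genes 1 fell, Cdh1, which encodes E-cadherin and is also made by some dendritic cells. Its control mean was 6.14 ± 0.35 and its mimic mean 4.56 ± 0.25, 2.99-fold lower (adjusted p = 0.0262 by limma, and adjusted p = 0.0524 without control array 1). Epcam was at 2.37 ± 0.14 and 2.55 ± 0.17 (adjusted p = 0.615), and Krt18, Krt19, Cldn4, Cldn7 and Esrp1 lay below 1 on all arrays. The epithelial sum ran from 75.5 to 110.8 in control and from 40.5 to 49.9 with the mimic. It rests largely on Cdh1, the brightest gene of the list, and 4 of the 11 genes had a lower mean with the mimic.

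Among the 14 lists, that of dendritic cell markers had the lowest median. The lists were written with earlier results of these data known, so nothing is read from that rank. Of 16 genes 7 fell and 0 rose (median log2 fold change -0.90), and the summed level was 3806, 2381 and 1830 in control arrays 1, 2 and 3 against 810.3, 815.7 and 833.8 in the mimic arrays. The order of the control arrays in this sum was that of the 4 member probe sets. The sum rests largely on the antigen presentation genes Cd74, H2-Aa and H2-Ab1, all called lower, with control means of 10.24, 9.05 and 7.81. Of the 16 genes 15 had a lower mean with the mimic, and 13 had groups that did not overlap (17.5% of all probe sets did). With the spike-in covariate 10 fell, and with the replicate block 2 fell. Flt3, Zbtb46, Batf3 and Irf8 were among the 9 genes that did not pass, with log2 fold changes of -0.44, -0.49, -0.63 and -0.40. Irf4 did not pass either (-1.17 ± 0.22, limma adjusted p = 0.0674). These genes, like Cd74, H2-Aa and H2-Ab1, were chosen after their values were seen. The chemokine genes Ccl17 and Ccl22 had log2 fold changes of -4.55 ± 0.43 and -3.52 ± 0.48 (adjusted p = 0.0187 and 0.0312 by limma) and, with Itgax, the largest falls of the list. Xcr1, of the cross-presenting subset, lay below 1 on all arrays. The part of dendritic cells in the difference of Plet1, Thy1 and Pdpn was not tested. Of 15 macrophage markers 2 rose and 1 fell (median 0.38), with sums of 4304 to 4419 in control and 3441 to 3673 with the mimic. The sum rests largely on the brightest gene, Lyz2 (11.40 ± 0.02 and 10.87 ± 0.07), and 10 of the 15 genes had a higher mean with the mimic. With the spike-in covariate 6 rose and 2 fell. Cd5l, a secreted macrophage protein gene, and the Fc receptor gene Fcgr1 rose by 1.16 ± 0.15 and 0.84 ± 0.11 (adjusted p = 0.0298 and 0.0276), and the lysozyme gene Lyz2 fell by 0.53 (adjusted p = 0.0439). Without control array 3 none of these 3 passed (adjusted p = 0.0701, 0.0594 and 0.108), and without array 1 Cd5l alone did (adjusted p = 0.0323). Of 10 stem and progenitor genes 0 passed by limma, and 7 had groups that did not overlap (17.5% of all probe sets did). The homeobox gene Hoxa9 had the largest difference, 0.93 ± 0.22 (adjusted p = 0.126). Hoxa9 passed upward with quantile normalisation (1.99-fold, adjusted p = 0.0487) and with the spike-in covariate (1.24, adjusted p = 0.00908). In both fits, and with array weights, 1 gene of the list was called lower. Procr had the largest fall as reported (-0.85 ± 0.14, limma adjusted p = 0.0508). The summed level ran from 142.7 to 195.3 in control and from 236.9 to 249.0 with the mimic. It rests largely on the brightest gene, Myb, which did not pass (limma adjusted p = 0.125). Procr and Myb were chosen after their values were seen.

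**Figure D3:**
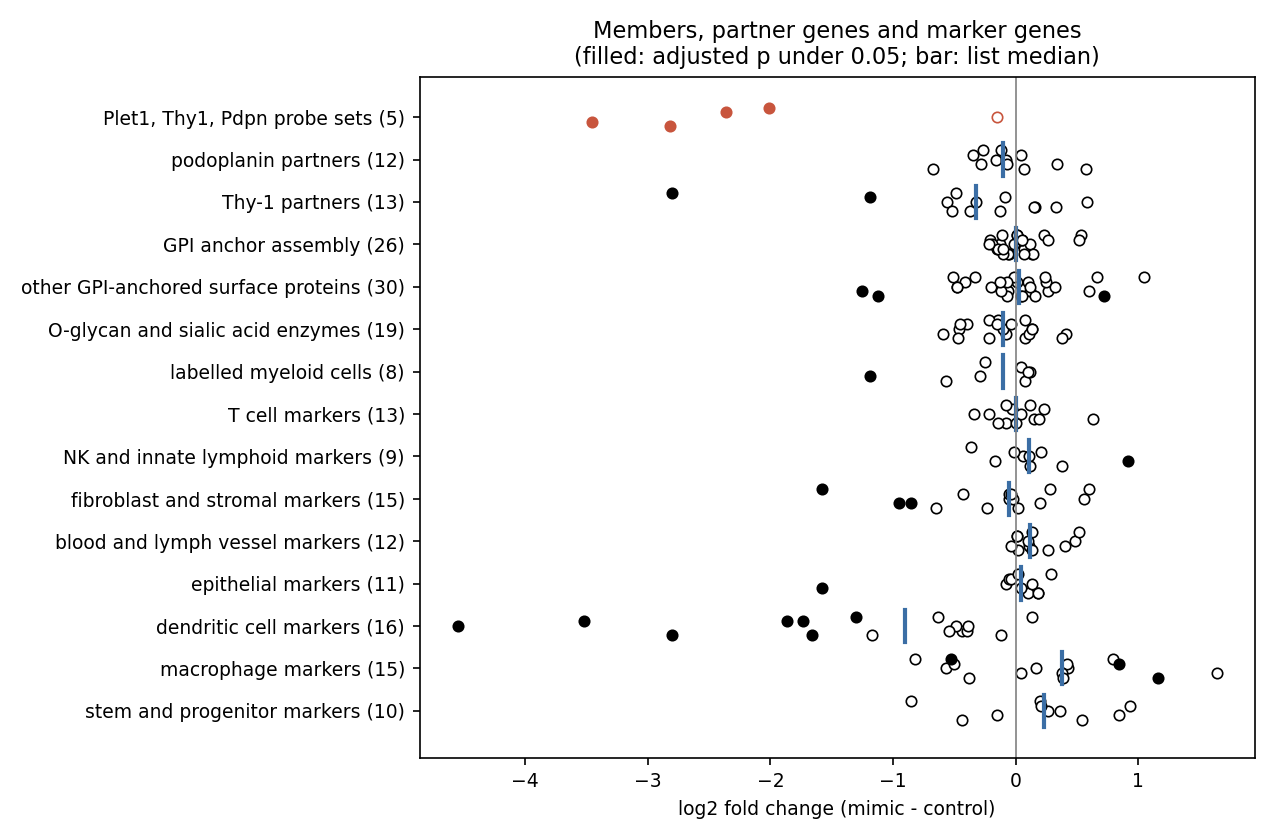
Log2 fold change (horizontal axis, mimic minus control) of the 5 member probe sets (top row, red) and of the brightest probe set of each gene in 14 lists of partners and cell type markers (1 point per gene, number of points in brackets). Filled points passed an adjusted p of 0.05, and the blue bar is the list median. The dendritic list holds 7 of the points called lower and has the lowest median, -0.90. The lists were written with earlier results of these data known.

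The genes whose profile over the 6 arrays was most like each member were found among 168 genes whose mean log2 reached 5 and whose SD over the arrays reached 0.5. With Plet1 these were Itgax (Pearson r = 0.9981), the fatty acid desaturase gene Scd2 (0.9979) and Plbd1 (0.9978), a phospholipase B-like gene. With Thy1 they were Itgax (0.9994), Plbd1 (0.9975) and Olfm1 (0.9947), which encodes the secreted protein noelin. With Pdpn they were Olfm1 (0.9969), Itgax (0.9964) and the adhesion molecule gene Icam1 (0.9952). Itgax was thus on all 3 lists. The difference between the groups makes up most of each r, and 26, 29 and 26 of the 168 candidates had an r of at least 0.98 with Plet1, Thy1 and Pdpn.

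The values behind these profiles are given as a description, since the choice by r over the same 6 arrays favours genes with the order of the members. Scd2 stood at 8.57, 8.15 and 7.79 in control arrays 1, 2 and 3 and at 6.78, 6.74 and 6.77 in the mimic arrays, and was 2.65-fold lower. Olfm1 stood at 6.72, 6.17 and 5.87 in control and at 4.41, 4.58 and 4.59 with the mimic, and was 3.31-fold lower. Plbd1 and Icam1 were 2.22-fold and 1.91-fold lower, read at the brightest probe set. Of the 2 other probe sets of Scd2 1 was called lower (log2 fold change -2.03 ± 0.28), and of the 2 of Olfm1 none passed. The fall of Itgax, 2.80 on the log2 scale, was next to that of 2.82 for Plet1 1423933_a_at.

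**Figure D4:**
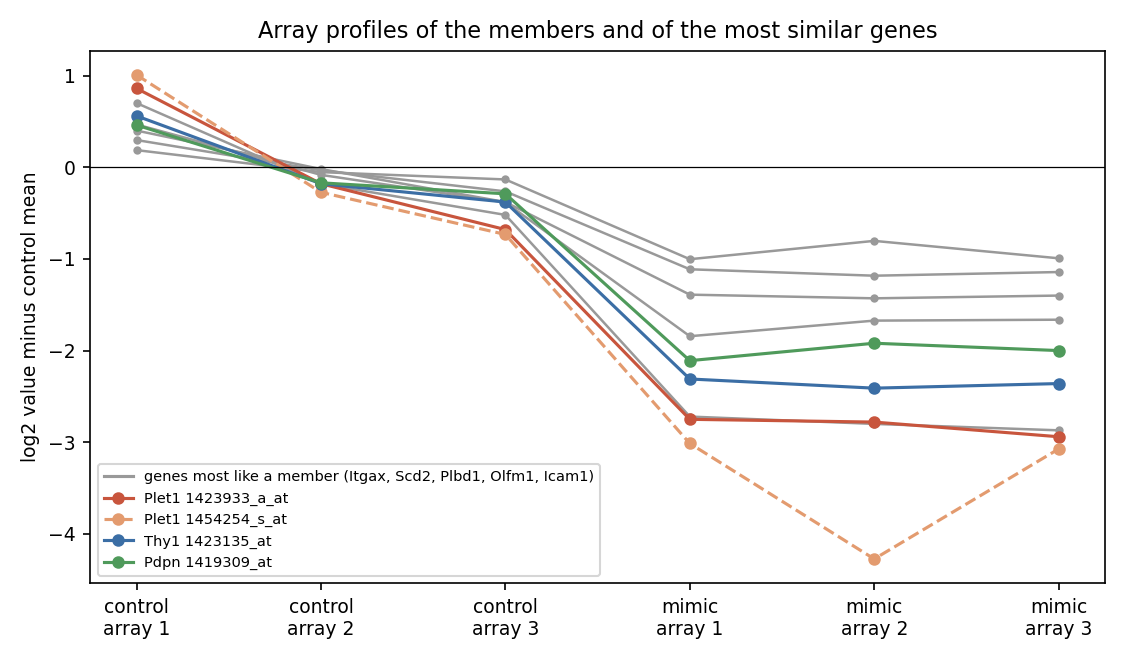
Log2 value minus the control mean (vertical axis) on each of the 6 arrays (horizontal axis) for the 4 responsive probe sets of Plet1, Thy1 and Pdpn (coloured) and for the 5 genes with the most similar profiles (grey). Lines only join the points of a probe set. Control array 1 is highest in each profile, and mimic array 2 of Plet1 1454254_s_at lies below its other mimic arrays.

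No measured gene near the members on the chromosome passed the test. The 5 nearest measured genes on each side were taken from the order of genes in the RefSeq table (GRCm38.p6). Genes without a probe set of their own were passed over, 6 of them before Nectin1 and 5 before Prdm2. Of the 30 genes taken 0 rose and 0 fell by limma, with log2 fold changes from -0.40 to 1.05 and a median of -0.05. Over all 18193 genes 1.45% passed, so a count of 0 among so few genes sets the neighbours apart from no other genes. Only 10 of them had a mean log2 of at least 3, and in many of the others a fall may not have been measurable. Plet1os, a long noncoding RNA gene that overlaps Plet1, lay near the floor at 0.45 ± 0.03 in control and 0.30 ± 0.21 with the mimic (adjusted p = 0.673), so no fall in it was detectable. Pts, the nearest gene on the other side of Plet1 and a gene of tetrahydrobiopterin synthesis, stood at 4.94 ± 0.28 and 4.87 ± 0.19 (adjusted p = 0.899). Beside Thy1, the cell adhesion gene Nectin1 differed by 0.11 ± 0.16 and the ubiquitin protease gene Usp2 by 0.04 ± 0.10 on the log2 scale (adjusted p = 0.834 and 0.924). Beside Pdpn, the zinc finger gene Prdm2 had -0.40 ± 0.10 and Lrrc38 had -0.06 ± 0.13 (adjusted p = 0.144 and 0.892). Near Plet1 the adhesion gene Ncam1 and the cytokine gene Il18 had higher values with the mimic (1.05 ± 0.22 and 0.75 ± 0.17, adjusted p = 0.0952 and 0.112), and these were chosen after their values were seen. Ncam1 passed with a trended robust variance (adjusted p = 0.0429), Il18 with array weights (adjusted p = 0.0488), and both passed upward in the fit of probe sets with a mean log2 of at least 3 (adjusted p = 0.0414 and 0.0487), with quantile normalisation and with the spike-in covariate.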

How the data were processed

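The authors deposited 1 log2 value per probe set and array. The submitters' processing notes name RMA and affy without saying how they were applied. The filter, centring and floor are unknown. Arrays were grouped by the labelled treatment and numbered by their titles. The values were used as deposited. Of 45037 probe sets that are not controls, 34945 had 1 symbol, 932 several and 9160 none, and 34741 symbols could be updated through RefSeq gene identifiers. All 45037 were fitted in R 4.3.3 using limma 3.58.1 (functions lmFit and eBayes, a two-sided test over the 6 arrays without covariates) and adjusted by Benjamini-Hochberg with a threshold of 0.05. For listed genes the probe set with the highest mean and 1 symbol was read. Of 220 genes in 14 lists, 205 were measured.

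The members and lists were chosen with earlier results of these data known, and the motifs after the sequences were seen. Named genes were the members, up to 3 called genes per list with the largest change or otherwise the 1 with the largest change, 10 genes fixed by name, the nearest neighbours and the 3 most similar profiles. On simulated data for the mimic against control comparison of 45037 probe sets, the fit recovered 11.8% of changes of 0.5, 65% of 1 and 92.6% of 2 on the log2 scale, with 3.73% false calls. The changed probe sets were drawn only from those with a mean log2 of at least 3, so dimmer ones are not covered. The simulated noise was independent between arrays and of equal spread in both groups, unlike the members' values. Alternatives were a replicate block, each array left out, other probe set choices, dim filters, variance models, scalings, a spike-in covariate and a minimum fold of 1.2.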

Additional observations from a re-analysis of the deposited data

How the results depend on the processing

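The number of probe sets called was 404, and refits gave totals, whose overlap with the 404 was not counted, of 69 with the replicate block, 50 with a minimum fold of 1.2, 631 with quantile normalisation, 780 and 835 with only probe sets of a mean log2 of at least 5 and 3 tested, 812 with a trended robust variance, 944 with array weights and 2138 with the spike-in covariate. With arrays left out in turn the number ran from 0 to 314. Listed genes called numbered 19 of 205, where 1.45% of all 18193 genes passed. The lists were written with earlier results known, so nothing is read from that difference. Of the same 205, 5 were called with the replicate block and 4 with the minimum fold. There were 30 with the trended robust variance, 44 with the spike-in covariate, and 0 to 16 with an array left out. Neighbouring genes called numbered 0, against 1 with the trended robust variance, 1 with array weights, and 2 with the filter at 3, with quantile normalisation and with the spike-in covariate. With the minimum fold, Thy1 and Pdpn passed and the Plet1 probe sets, at -2.82 and -3.45, did not. With an array left out, log2 fold changes ran from -2.40 to -3.16 for Plet1 1423933_a_at, from -2.95 to -3.82 for 1454254_s_at, from -0.08 to -0.28 for 1423934_at, from -2.08 to -2.55 for Thy1 and from -1.78 to -2.16 for Pdpn. None of the alternatives run turned the sign of a member. The causes of these shifts were not tested. Arrays of the same number did not deviate together (correlations of -0.11, 0.19 and -0.24), so the numbers were not treated as pairs. With the replicate block all 4 member calls held. The dim probe set 1423934_at and Plet1os lie near the floor, where a fall may not be measurable.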
